A study of Drosophila melanogaster with 8 samples.

Results

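The vacuolar proton pump subunits were taken as every probe set whose only gene symbol begins with Vha and a digit, or with VhaA, VhaM, VhaP or VhaS. This gave 32 probe sets for 31 genes, out of 18769 probe sets, of which 13647 carried 1 symbol and covered 11982 genes. The 13 genes whose products are used in most tissues, called ubiquitous here, had 14 probe sets, and the 18 alternative or tissue-restricted copies had 1 probe set each. Of the 32, 8 carry a suffix for probes shared between transcripts, which can mix signals of related genes. The A subunit of the pump, which holds the catalytic site, was represented only by the restricted copy Vha68-3. Its other copies, Vha68-1 and Vha68-2, were not analysed here.

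RNA was measured on 8 Affymetrix Drosophila Genome 2.0 arrays, 2 per group, from 4-day-old mated females of Drosophila melanogaster. The 4 groups were spermathecae of Hr39(04443) mutants, spermathecae of wild-type females, the lower reproductive tract without spermathecae of the mutants, and the same lower tract of wild-type females. The labels name no wild-type strain, so genotype and strain background cannot be told apart. Each group consists of an original and a duplicate array that the labels do not tie to separate animals. The p-values rest on the spread between the 2 arrays within groups, pooled over the 4 groups and moderated by limma. That spread may be technical.

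The vacuolar ATPase is a rotary machine that moves protons across membranes at the expense of ATP. Its cytosolic sector, V1, binds and hydrolyses ATP, and its membrane sector, V0, carries the protons, with a central rotor and peripheral stalks joining the sectors. It acidifies lysosomes, endosomes and secretory vesicles in nearly all cells, and in some insect epithelia, such as the Malpighian tubules, it is packed into the plasma membrane and energises ion and fluid transport. Several Drosophila subunits are encoded by a broadly expressed gene and by further copies, some of them known mainly from testis. The female spermathecae store and nourish sperm and carry large secretory cells, and the lower tract is a muscular duct lined by epithelium.

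Across the whole arrays, values are MAS5 signals on a linear scale, and 10113 probe sets passed the filter on low values, which asks that at least 1 group has no array below that array's own median. Array medians lay between 17.7 and 22.5. Differences are of log2(signal + 4), with their standard error (SE), and a probe set is called when limma's p, adjusted by Benjamini-Hochberg over the 10113, is below 0.05. The Hr39 gene had 4 probe sets. Probe set 1630002_s_at read 477 and 452 in mutant spermathecae, 821 and 725 in wild-type spermathecae, 59.6 and 65.4 in the mutant lower tract and 73.3 and 88.2 in the wild-type lower tract, and it was the only one of the 4 called lower in mutant spermathecae, at -0.73 on the log2 scale (SE 0.177, adjusted p = 0.0351). None of the 4 was called in the lower tract, where the smallest adjusted p was 0.0947. On the array of wild-type spermathecae replicate 1 the ratio of the 3' to the 5' probe set of Act5C, a sign of RNA quality, was 24.9, where the remaining 7 arrays had ratios of 3.56 to 4.80. The controls differed on that array. Its GAPDH ratio was 5.87, against 2.46 to 4.05 on the other arrays, and its eIF-4a ratio was 3.17, within their 2.75 to 3.35. The oocyte gene osk read 556 on wild-type lower tract replicate 1, against 3.88 to 28.7 elsewhere. The correlation of log2 values within groups was 0.957 to 0.968. All 7 kept probe sets of spermathecal secretory genes were called higher in spermathecae than in the lower tract in both genotypes.

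The ubiquitous subunits had high signals in all 4 groups and were lower in spermathecae than in the lower tract, with calls for 13 of 14 probe sets in the mutant and 8 of 14 in wild type. Between genotypes, Vha44 alone of the 14 was called, higher in the mutant lower tract, and 0 were called in spermathecae. Averaged over the 14 probe sets, the mean log2 signal was 11.30 and 11.31 in mutant spermathecae, 11.66 and 11.59 in wild-type spermathecae, 12.51 and 12.31 in the mutant lower tract and 12.15 and 12.25 in the wild-type lower tract. The arrays of mutant spermathecae were the lowest of the 8 and those of the mutant lower tract the highest, with wild type between them in each organ. The plot of ubiquitous subunits by array shows each of the 14 probe sets.

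**Figure D1:**
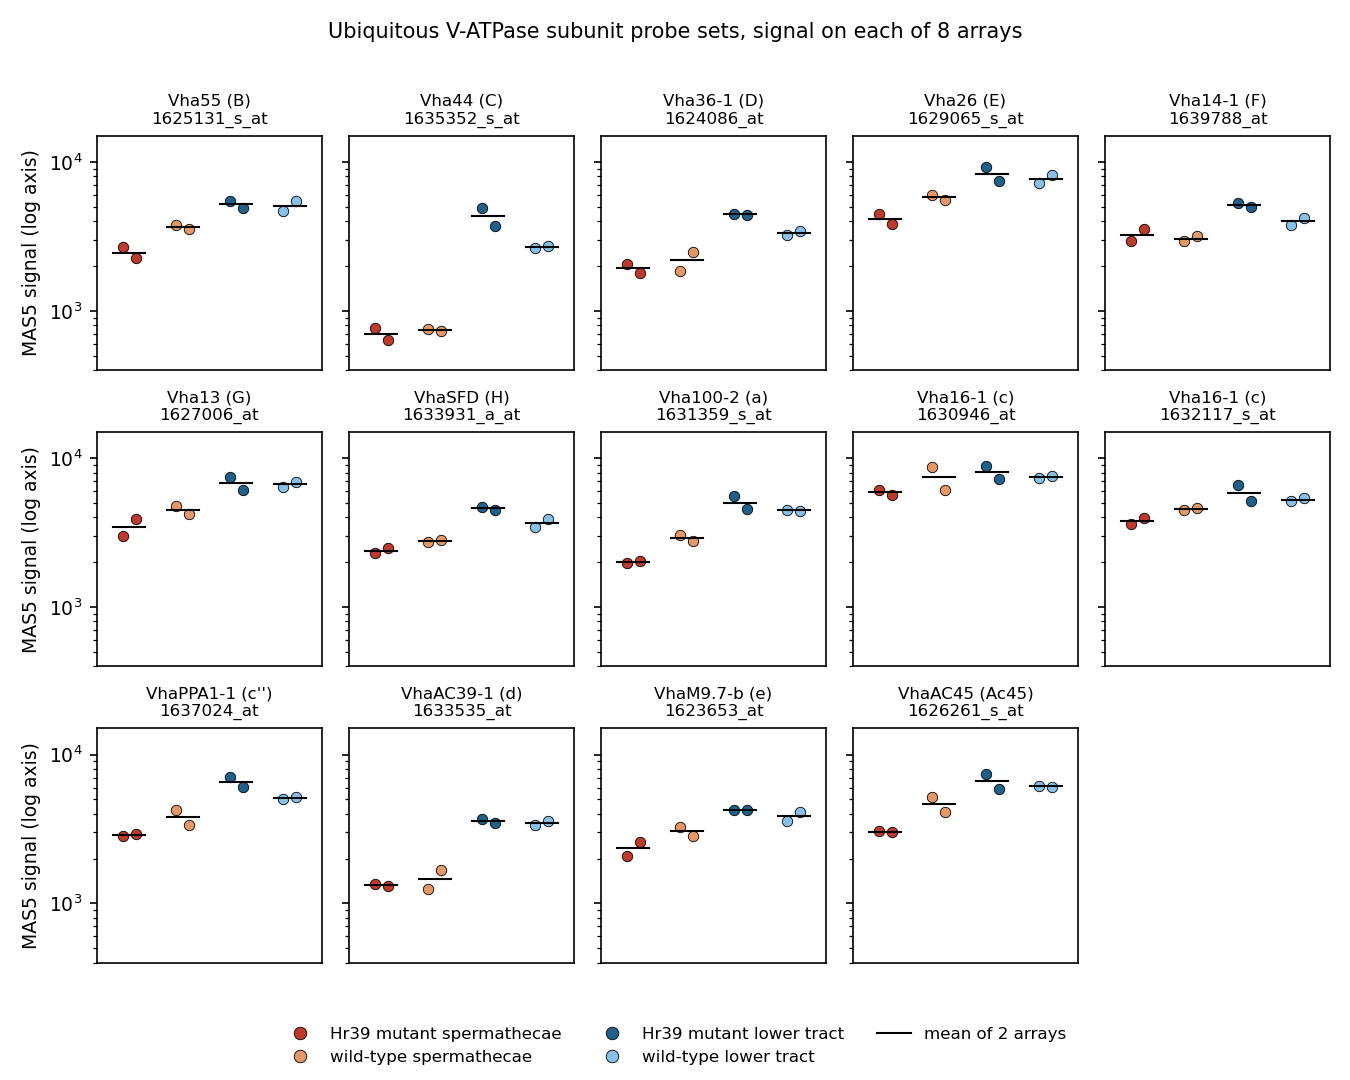
MAS5 signal (log scale) of the 14 ubiquitous probe sets on each of the 8 arrays, 1 panel per probe set, with points for arrays and bars for group means (n = 2 per group). For Vha44 the highest of the 4 spermathecal arrays reads 769.9 and the lowest of the 4 lower tract arrays 2626.

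The question of how spermathecae compare with the lower tract was asked in each genotype separately. In the mutant, 13 of the 14 ubiquitous probe sets were called lower in spermathecae and 0 higher, where 21.5% of all tested probe sets were called lower and 24.7% higher. Their median log2 difference was -1.05, against a median of 0.14 over all tested probe sets. In wild type, 8 of 14 were called lower, against 21.5% of all tested, and the median difference was -0.43, against 0.07 over all. That wild-type count depends on the scaling of the arrays, with 3 of 14 called lower after median centring and 13 after quantile normalization. The shares of all tested probe sets called lower in those fits are not given here, so these counts cannot be set against the 21.5%. The arrays of the organs did not overlap for 14 of 14 in the mutant and for 13 of 14 in wild type, where 34.1% and 32.7% of all tested probe sets had their spermathecal arrays below the lower tract arrays. These are whole organs, so a lower signal from fewer cells of a type and from less RNA per cell cannot be told apart.

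**Figure D2:**
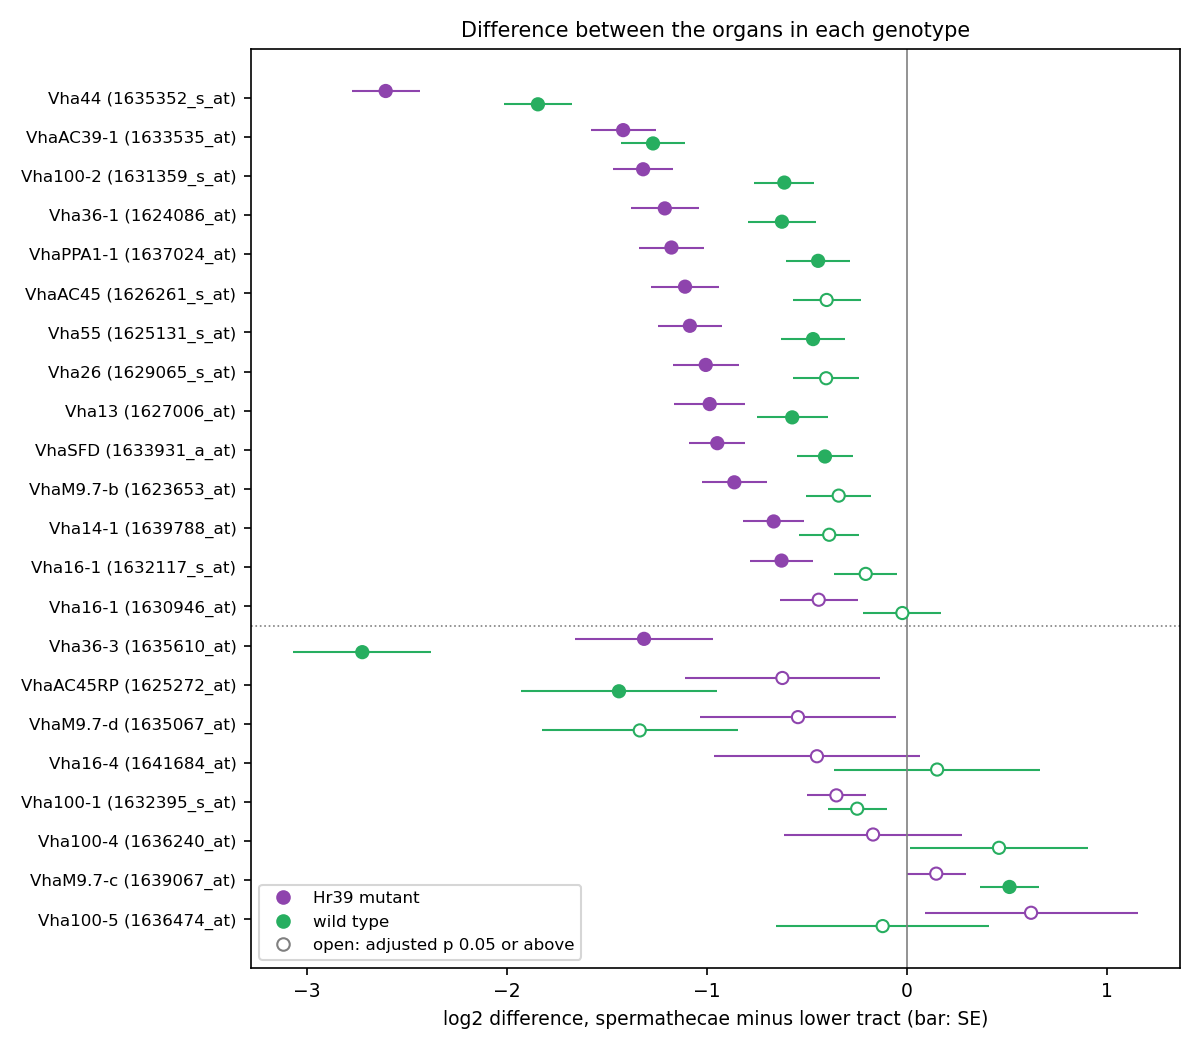
Log2 difference of spermathecae minus lower tract for the 22 tested Vha probe sets in mutant and wild-type females, with bars for the SE, filled points for called and open points for uncalled differences, and a dotted line below the ubiquitous probe sets. All 14 ubiquitous estimates lie below 0 in both genotypes, and the mutant estimate is the lower of the pair for each of them.

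Among the V1 subunits, Vha44, the C subunit that links V1 to the stalks and V0, showed the widest gap. Its signal was 769.9 and 633 in mutant spermathecae and 4892 and 3723 in the mutant lower tract. Wild-type spermathecae read 758 and 729.9, against 2626 and 2739 in the wild-type lower tract. Spermathecae were 6.08-fold lower in the mutant, or -2.61 (SE 0.169, adjusted p = 1.28e-06) as a log2 difference, and 3.59-fold lower in wild type, or -1.84 (SE 0.169, adjusted p = 1.58e-05). No other of the 14 had as wide a difference between the organs in either genotype. Vha55, the B subunit, which binds nucleotide beside the A subunit, had signals of 2665 and 2248 in mutant spermathecae, 3766 and 3531 in wild-type spermathecae, 5507 and 4908 in the mutant lower tract and 4649.9 and 5491 in the wild-type lower tract. The log2 difference of spermathecae minus lower tract was -1.09 (SE 0.159, adjusted p = 0.000353) in the mutant and -0.47 (SE 0.159, adjusted p = 0.0363) in wild type.

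The D and F subunits form the rotor shaft of V1. Vha36-1, the D subunit, had signals of 2059 and 1788 in mutant spermathecae, 1863 and 2500.3 in wild-type spermathecae, 4483 and 4409 in the mutant lower tract and 3246 and 3419 in the wild-type lower tract. It was called lower in spermathecae of both genotypes, with a log2 difference of -1.21 (SE 0.168, adjusted p = 0.000252) in the mutant and -0.63 (SE 0.168, adjusted p = 0.0134) in wild type. Vha14-1, the F subunit, had signals of 2953 and 3529 in mutant spermathecae, 2924 and 3157 in wild-type spermathecae, 5303 and 4957 in the mutant lower tract and 3787 and 4185 in the wild-type lower tract. Its log2 difference was -0.67 (SE 0.151, adjusted p = 0.00506) in the mutant, which was called, and -0.39 (SE 0.151, adjusted p = 0.0613) in wild type, which was not. The organs' arrays did not overlap for either gene in either genotype.

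The E and G subunits form the peripheral stalks, and H is a regulatory subunit that keeps free V1 silent. Vha26, the E subunit, had signals of 4443 and 3837 in mutant spermathecae, 6044 and 5569 in wild-type spermathecae, 9187 and 7493 in the mutant lower tract and 7252 and 8136 in the wild-type lower tract. Its log2 difference was -1.01 (SE 0.166, adjusted p = 0.000774) in the mutant and -0.40 (SE 0.166, adjusted p = 0.0738) in wild type. Vha13, the G subunit, had signals of 3006 and 3887 in mutant spermathecae, 4763 and 4233 in wild-type spermathecae, 7481 and 6137 in the mutant lower tract and 6439 and 6944 in the wild-type lower tract, with log2 differences of -0.99 (SE 0.177, adjusted p = 0.00130) in the mutant and -0.57 (SE 0.177, adjusted p = 0.0248) in wild type. VhaSFD, the H subunit, had signals of 2314 and 2479 in mutant spermathecae, 2738 and 2807 in wild-type spermathecae, 4734 and 4522 in the mutant lower tract and 3457 and 3929.8 in the wild-type lower tract, with log2 differences of -0.95 (SE 0.140, adjusted p = 0.000369) in the mutant and -0.41 (SE 0.140, adjusted p = 0.0373) in wild type. Of the 7 V1 probe sets, 7 were called lower in spermathecae in the mutant and 5 in wild type, where Vha26 and Vha14-1 were not called.

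In the V0 sector the a subunit, Vha100-2, provides the channels through which protons enter and leave the rotor ring. Its signal was 1988 and 2031 in mutant spermathecae, 3048 and 2798 in wild-type spermathecae, 5555 and 4535 in the mutant lower tract and 4501 and 4440.4 in the wild-type lower tract. The log2 difference between the organs was -1.32 (SE 0.149, adjusted p = 6.34e-05) in the mutant and -0.61 (SE 0.149, adjusted p = 0.00800) in wild type, with no overlap between the organs. VhaAC39-1, the d subunit that couples the V1 rotor to the ring, had signals of 1358 and 1314 in mutant spermathecae, 1243 and 1664 in wild-type spermathecae, 3674 and 3485 in the mutant lower tract and 3369 and 3582 in the wild-type lower tract. Its organ difference was -1.42 (SE 0.162, adjusted p = 6.67e-05) in the mutant and -1.27 (SE 0.162, adjusted p = 0.000154) in wild type, the widest difference of the V0 sector in both.

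The proteolipid ring carries the protons and is built of c subunits and a c'' subunit. The c'' subunit VhaPPA1-1 had signals of 2839 and 2937 in mutant spermathecae, 4209.6 and 3368 in wild-type spermathecae, 7085 and 6029 in the mutant lower tract and 5048 and 5205 in the wild-type lower tract, with log2 differences of -1.18 (SE 0.161, adjusted p = 0.000223) in the mutant and -0.44 (SE 0.161, adjusted p = 0.0474) in wild type. The c subunit Vha16-1 was measured by a pair of probe sets that moved together in direction. The 1632117_s_at probe set had signals of 3614 and 3954 in mutant spermathecae, 4522 and 4617 in wild-type spermathecae, 6564 and 5198 in the mutant lower tract and 5156 and 5395 in the wild-type lower tract, with log2 differences of -0.63 (SE 0.157, adjusted p = 0.00868) in the mutant and -0.21 (SE 0.157, adjusted p = 0.317) in wild type. The 1630946_at probe set had signals of 6162 and 5683 in mutant spermathecae, 8803 and 6128 in wild-type spermathecae, 8860.5 and 7294 in the mutant lower tract and 7365 and 7572 in the wild-type lower tract, with log2 differences of -0.44 (SE 0.195, adjusted p = 0.0896) in the mutant and -0.02 (SE 0.195, adjusted p = 0.932) in wild type. The probe sets of Vha16-1 disagreed on the call in the mutant, neither was called in wild type, and their estimates were the nearest to 0 of the 14 in both genotypes.

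The e subunit VhaM9.7-b is a small membrane protein of V0, with signals of 2083 and 2593 in mutant spermathecae, 3268 and 2838 in wild-type spermathecae, 4225 and 4239 in the mutant lower tract and 3599 and 4142 in the wild-type lower tract and log2 differences of -0.86 (SE 0.162, adjusted p = 0.00172) in the mutant and -0.34 (SE 0.162, adjusted p = 0.116) in wild type. VhaAC45, the accessory glycoprotein that takes part in assembly and targeting of the pump, had signals of 3054 and 3025 in mutant spermathecae, 5183 and 4132 in wild-type spermathecae, 7352 and 5859 in the mutant lower tract and 6135 and 6098 in the wild-type lower tract and differences of -1.11 (SE 0.170, adjusted p = 0.000480) in the mutant and -0.40 (SE 0.170, adjusted p = 0.0816) in wild type. Of the 7 V0 probe sets, 6 were called lower in mutant spermathecae and 3 in wild-type spermathecae. ATP6AP2, a further accessory protein whose symbol falls outside the rule, had signals of 2685 and 3264 in mutant spermathecae, 2319.6 and 3866 in wild-type spermathecae, 6480.1 and 5554 in the mutant lower tract and 5299 and 5167 in the wild-type lower tract. Its difference was -1.02 (SE 0.228, adjusted p = 0.00473) in the mutant and -0.80 (SE 0.228, adjusted p = 0.0169) in wild type.

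Among the wild-type calls, those of Vha44, VhaAC39-1, Vha100-2 and the restricted copy Vha36-3 held when any 1 array was left out, and the others did not. Over all Vha probe sets, 10 were called lower in wild-type spermathecae with all arrays, against 6 without wild-type spermathecae replicate 2, 6 without either mutant lower tract array and 4 without wild-type lower tract replicate 2. In terms of adjusted p, the calls lost without wild-type lower tract replicate 2 were Vha36-1 at 0.0648, Vha55 at 0.199, VhaAC45RP at 0.0801, Vha13 at 0.112, VhaSFD at 0.191 and VhaPPA1-1 at 0.154. Without wild-type lower tract replicate 1 they were VhaAC45RP at 0.131, Vha13 at 0.0586, VhaPPA1-1 at 0.112 and VhaM9.7-c at 0.0956. Without wild-type spermathecae replicate 2 they were Vha55 at 0.0895, VhaAC45RP at 0.210, Vha13 at 0.0812, VhaSFD at 0.0503 and VhaPPA1-1 at 0.177, and without wild-type spermathecae replicate 1 they were Vha36-1 at 0.0573 and VhaSFD at 0.0685. Without mutant lower tract replicate 1 the calls of Vha55 at 0.0600, VhaAC45RP at 0.0565, VhaSFD at 0.0678 and VhaPPA1-1 at 0.0690 were lost, with adjusted p of 0.0605, 0.0560, 0.0684 and 0.0697 for the same genes once its replicate 2 was left out instead. Leaving out mutant spermathecae replicate 1 lost the calls of VhaSFD at 0.0589 and VhaPPA1-1 at 0.0733, and leaving out its replicate 2 those of VhaSFD at 0.0594 and VhaPPA1-1 at 0.0741.

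In the mutant, the organ calls of Vha16-1 (1632117_s_at), Vha14-1 and Vha36-3 did not hold without mutant spermathecae replicate 1, at adjusted p of 0.0659, 0.0544 and 0.0870. Without mutant lower tract replicate 1 the same 3 stood at 0.104, 0.0504 and 0.115. The other 11 Vha calls of the mutant held without any 1 array.

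The next question was whether the Hr39 mutation goes with a change of the pump within the spermathecae. No ubiquitous probe set was called by limma, where 3.89% of all tested probe sets were called lower and 4.04% higher, and 6 of the 14 had an unadjusted p below 0.05, as did 21.5% of all tested. The smallest adjusted p was 0.0574. The estimates lay below 0 for 13 of 14, the exception being Vha14-1, with a median of -0.35 against 0.02 over all tested probe sets, of which 48.1% lay below 0. For 9 of the 14 both mutant arrays lay below both wild-type arrays, as for 25.1% of all tested probe sets. The hemocyte markers had 8 of 12 kept probe sets below 0 in the same comparison, with a median of -0.42 and 1 called lower. That list was mixed, with NimC1, Pxn, crq and PPO2 above 0. Hml read 28.5 and 52.0 in mutant against 50.6 and 33.6 in wild-type spermathecae. Those below 0 included Col4a1, vkg, srp and lz, and whether the signal of srp and lz comes from hemocytes was not tested. The part of hemocytes in the pump estimates was not tested.

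The estimates farthest below 0 were those of the accessory protein VhaAC45 with -0.61 (SE 0.170, adjusted p = 0.0601), the B subunit Vha55 with -0.57 (SE 0.159, adjusted p = 0.0574) and the a subunit Vha100-2 with -0.54 (SE 0.149, adjusted p = 0.0579). Their 95% intervals were -0.99 to -0.23, -0.93 to -0.22 and -0.87 to -0.20. For all 3, both mutant arrays read below both wild-type arrays, with VhaAC45 at 3054 and 3025 in mutant spermathecae against 5183 and 4132 in wild-type spermathecae. These 3 were called lower with quantile normalization, with a stricter filter and with a robust variance, and without wild-type spermathecae replicate 2 VhaAC45 and Vha100-2 were called, at adjusted p of 0.0227 and 0.0479. That last setting rests on wild-type spermathecae replicate 1 alone, the array with the Act5C ratio of 24.9. Without replicate 1 the adjusted p was 0.194 for VhaAC45 and 0.145 for Vha100-2. Over all alternatives the adjusted p reached 0.249 for VhaAC45, 0.224 for Vha100-2 and 0.334 for Vha55, each without 1 of the mutant spermathecae arrays. The estimates nearest to 0 were those of Vha14-1, Vha44 and VhaAC39-1, at 0.09, -0.09 and -0.11, with overlapping arrays. Their 95% intervals were -0.25 to 0.43, -0.47 to 0.29 and -0.47 to 0.26.

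**Figure D3:**
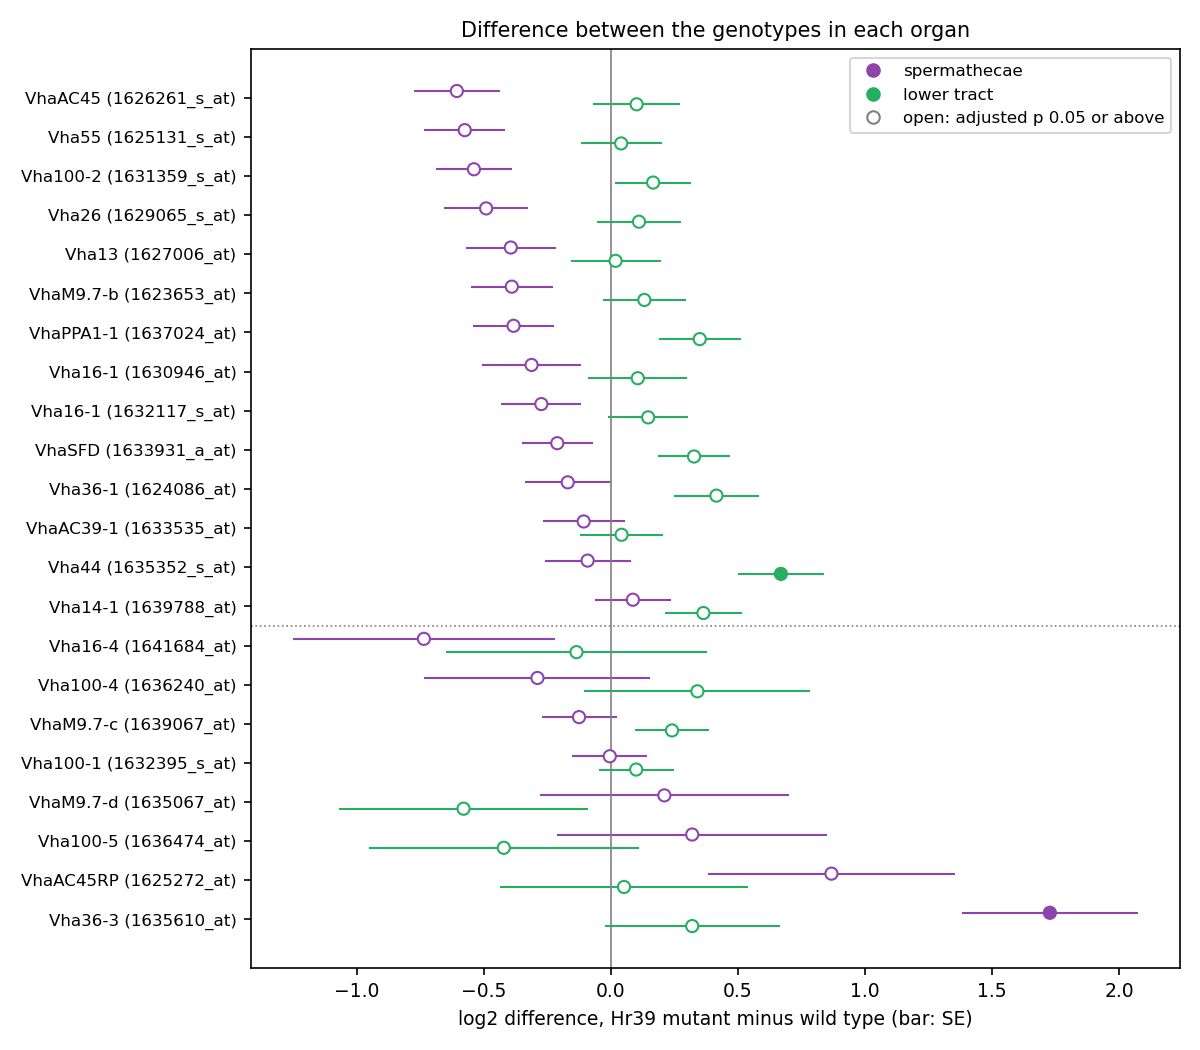
Log2 difference of mutant minus wild type for the 22 tested Vha probe sets in spermathecae and in the lower tract, with bars for the SE, filled points for called and open points for uncalled differences, and a dotted line below the ubiquitous probe sets. In the spermathecae 13 of the 14 ubiquitous estimates lie below 0 and in the lower tract 14 of 14 lie above 0, and Vha44 in the lower tract and Vha36-3 in the spermathecae are the 2 that were called.

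The same contrast in the lower tract called 1 ubiquitous probe set, Vha44, which rose in the mutant, where 2.47% of all tested probe sets were called higher and 3.33% lower. The signal of this C subunit was 4892 and 3723 in the mutant lower tract against 2626 and 2739 in the wild-type lower tract, without overlap, a log2 difference of 0.67 (SE 0.169, adjusted p = 0.0489). Leaving out any 1 of the lower tract or mutant spermathecae arrays ended this call, with adjusted p of 0.424 and 0.0686 for mutant lower tract replicates 1 and 2, 0.196 and 0.108 for wild-type lower tract replicates 1 and 2, and 0.0678 and 0.0683 for mutant spermathecae replicates 1 and 2. The estimates of all 14 ubiquitous probe sets lay above 0, with a median of 0.14 against -0.0029 over all tested, and 7 of the 14 had both mutant arrays above both wild-type arrays, as did 25.3% of all tested. After Vha44 the farthest above 0 were Vha36-1 at 0.42 (SE 0.168, adjusted p = 0.230), Vha14-1 at 0.36 (SE 0.151, adjusted p = 0.243) and VhaPPA1-1 at 0.35 (SE 0.161, adjusted p = 0.302), none of which was called. Markers of other cell types moved in the same comparison. Fat body markers summed over their 10 probe sets to 25828 and 25670 in the mutant lower tract against 38072 and 37488 in the wild-type lower tract, without overlap. Of the 8 kept, all estimates lay below 0, with a median of -0.48 and 3 called lower. Of the 12 kept hemocyte probe sets, 8 lay above 0, with a median of 0.32 and 2 called higher. These were NimC1 at 2.82 (SE 0.341, adjusted p = 0.00102) and PPO1 at 0.90 (SE 0.178, adjusted p = 0.0163). All 7 kept spermathecal secretory probe sets lay above 0 in the mutant lower tract, with a median of 1.68 and 0 called by limma, 1 of them at an unadjusted p below 0.05, as were 17.4% of all tested. For all 7 the arrays of the genotypes overlapped, and replicate 1 read above replicate 2 in both genotypes. The 7 thus share a swing between arrays and do not count as separate results. The part of these cells in the pump estimates was not tested.

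Whether the genotype difference itself depends on the organ was tested with the interaction, the mutant minus wild-type difference in spermathecae less that in the lower tract. Limma called 0 of the 22 Vha probe sets, where 1.29% of all tested were called lower and 1.76% higher, and 10 of the 22 had an unadjusted p below 0.05, as did 14.0% of all tested. The smallest adjusted p was 0.134, for Vha100-2 with -0.71 and a 95% interval of -1.18 to -0.23. All 14 ubiquitous estimates lay below 0, with a median of -0.56, against 0.04 over all tested, of which 46.7% lay below 0. Some other lists had medians below 0 too. The hemocyte markers had 10 of 12 below 0, a median of -0.78 and 2 called lower. The acid-base and ion transport list had 22 of 32 below 0, a median of -0.23, 3 called lower and 2 higher. The gut and Malpighian tubule markers were mixed, with 5 of 9 below 0 and 4 above, a median of -0.76 and 1 called lower. The spermathecal secretory genes had 7 of 7 below 0, a median of -1.78 and 0 called, with lower tract replicates far apart in both genotypes. Fat body markers lay on the other side, with 8 of 8 above 0, a median of 0.65 and 2 called higher. The part of these lists in the pump estimates was not tested. Among the pump subunits the farthest below 0 was Vha44, at -0.76 (SE 0.239, adjusted p = 0.154), and the nearest to 0 was VhaAC39-1, at -0.15 (SE 0.229, adjusted p = 0.838). VhaPPA1-1, at -0.73 (SE 0.228, adjusted p = 0.150), was called only without wild-type spermathecae replicate 2, where its adjusted p was 0.0429 and wild-type spermathecae rested on replicate 1 alone, and with quantile normalization. The same contrast is the organ difference in the mutant less that in wild type, so a wider organ difference in the mutant was not called for any single subunit.

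Of the 18 alternative or tissue-restricted copies, 8 passed the filter and 10 did not. A copy that passed only through the group where it is high had to differ between groups, so the counts below describe and do not support a difference. The 10 that did not pass were Vha100-3, Vha14-2, Vha16-2, Vha16-3, Vha16-5, Vha36-2, Vha68-3, VhaAC39-2, VhaM9.7-a and VhaPPA1-2, with signals between 0.560 and 34.6 on single arrays, where array medians were 17.7 to 22.5. Of the 8 that passed, Vha100-1 and VhaM9.7-c alone were above the array median on all 8 arrays. In mutant spermathecae 1 of the 8 was called lower than in the lower tract, and in wild type 2 were called lower and 1 higher. Among all tested probe sets 21.5% were called lower in either genotype and 22.2% higher in wild type, so these counts lie near or below the shares of the array as a whole.

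Vha100-1, an a subunit known from synaptic vesicles of neurons, had signals of 765 and 720.0 in mutant spermathecae, 725 and 764 in wild-type spermathecae, 1019 and 885 in the mutant lower tract and 952 and 824 in the wild-type lower tract. Its estimates, -0.35 (SE 0.148, adjusted p = 0.0760) for the organ difference in the mutant and -0.25 (SE 0.148, adjusted p = 0.201) in wild type, were not called. VhaM9.7-c, a copy of the e subunit, had signals of 519 and 500.2 in mutant spermathecae, 561 and 551 in wild-type spermathecae, 450.2 and 471 in the mutant lower tract and 359 and 422 in the wild-type lower tract. It was the only Vha probe set called higher in spermathecae, in wild type, at 0.51 (SE 0.147, adjusted p = 0.0184), where 22.2% of all tested probe sets were called higher. In the mutant its difference was 0.15 (SE 0.147, adjusted p = 0.450), and the wild-type call did not hold without wild-type lower tract replicate 1 (adjusted p = 0.0956).

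Vha36-3, a copy of the D subunit on the X chromosome, was the only Vha gene called between genotypes in the spermathecae. Its signal was 28.9 and 46.5 in mutant spermathecae against 8.36 and 8.26 in wild-type spermathecae, and 121 and 78.0 in the mutant lower tract against 66.0 and 90.3 in the wild-type lower tract. Both wild-type spermathecal arrays read below their array medians and below all other arrays. The genotype difference in spermathecae was 1.73 (SE 0.345, adjusted p = 0.0135) on the log2(signal + 4) scale, where the organ differences were -1.31 (SE 0.345, adjusted p = 0.0110) in the mutant and -2.72 (SE 0.345, adjusted p = 0.000147) in wild type. Without mutant spermathecae replicate 2 the genotype difference was 1.42 (adjusted p = 0.126), and without wild-type spermathecae replicate 1 it was 1.73 (adjusted p = 0.0504). Its size moves with the pseudocount, from 2.14 with none to 1.01 with a pseudocount of 20.

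The other 5 restricted copies lay near the array medians. VhaAC45RP, related to the accessory glycoprotein, had signals of 16.1 and 24.6 in mutant spermathecae, 17.6 and 3.97 in wild-type spermathecae, 36.2 and 30.0 in the mutant lower tract and 35.1 and 28.5 in the wild-type lower tract and was called lower in spermathecae in wild type, at -1.44 (SE 0.487, adjusted p = 0.0365). VhaM9.7-d, another e copy, had signals of 16.2 and 7.63 in mutant spermathecae, 5.07 and 15.4 in wild-type spermathecae, 20.8 and 16.2 in the mutant lower tract and 25.6 and 33.8 in the wild-type lower tract. Its difference in wild type was -1.34 (SE 0.491, adjusted p = 0.0502). Vha100-4, a copy of the a subunit, had signals of 23.2 and 29.3 in mutant spermathecae, 41.3 and 25.8 in wild-type spermathecae, 34.9 and 25.5 in the mutant lower tract and 13.7 and 36.4 in the wild-type lower tract. Vha100-5, also of the a family, had signals of 28.5 and 20.8 in mutant spermathecae, 11.0 and 30.5 in wild-type spermathecae, 22.7 and 8.81 in the mutant lower tract and 27.4 and 15.5 in the wild-type lower tract. Vha16-4, a c copy, had signals of 33.7 and 7.34 in mutant spermathecae, 29.5 and 31.3 in wild-type spermathecae, 22.1 and 26.6 in the mutant lower tract and 30.5 and 23.9 in the wild-type lower tract. No comparison called Vha100-4, Vha100-5 or Vha16-4.

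**Figure D4:**
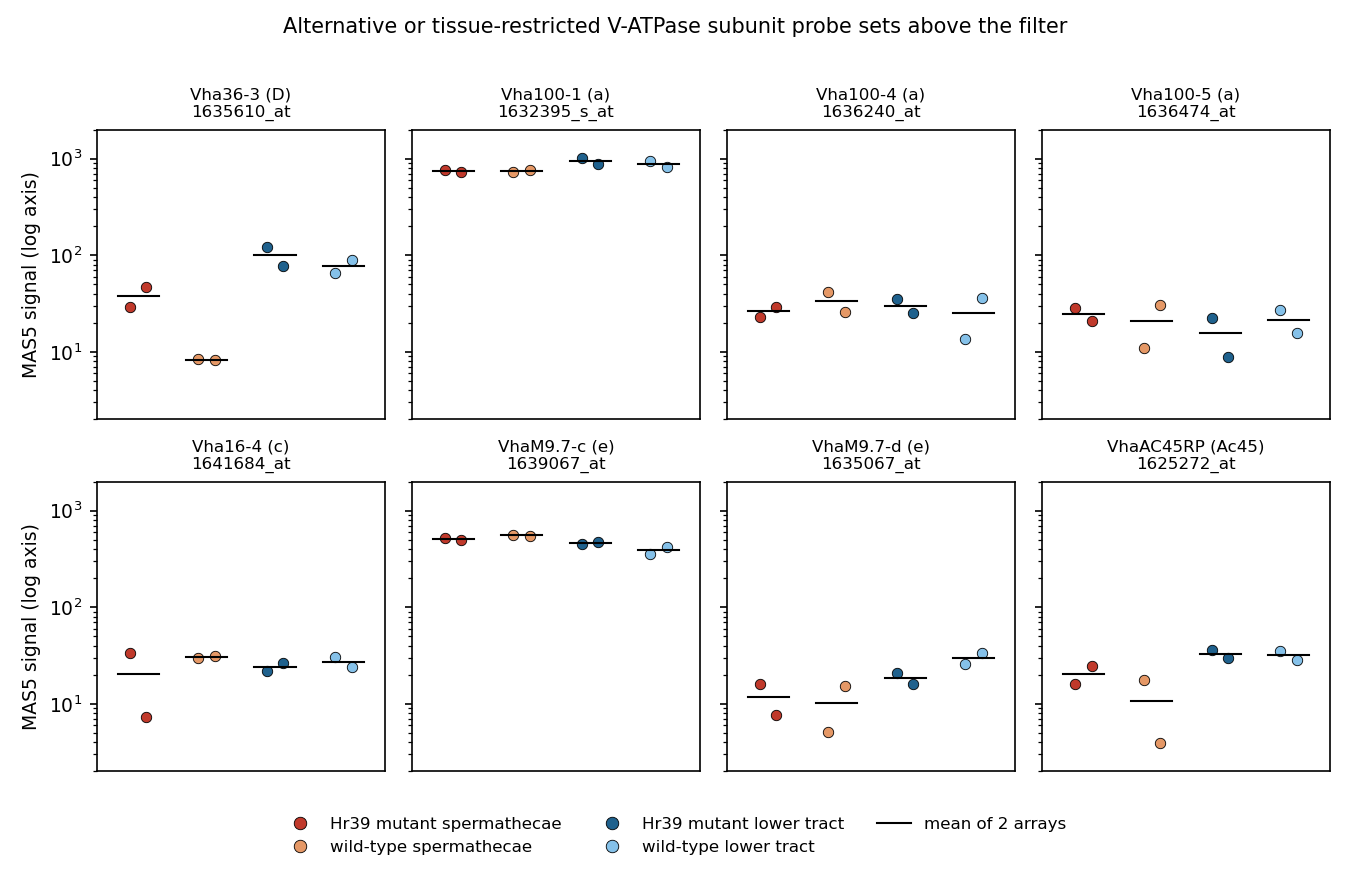
MAS5 signal (log scale) of the 8 restricted Vha probe sets that passed the filter on each of the 8 arrays, with points for arrays and bars for group means (n = 2 per group). The lowest reading of Vha100-1 and VhaM9.7-c is 359, the highest of the other 6 is 121, and Vha36-3 is lowest on the 2 wild-type spermathecae arrays.

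The family is scattered over the chromosomes, with 12 of the 31 genes on 3R, 8 on 2R, 5 on 3L, 4 on 2L and 2 on the X chromosome, by the RefSeq annotation of Drosophila Release 6. Only a few copies sit side by side. Vha100-4 and Vha100-2 are immediate neighbours with 0 annotated genes between them, and VhaPPA1-2 and VhaPPA1-1, and Vha16-3 and Vha16-2, have 1 between them. Vha68-3 lies between the other A subunit genes, with 0 annotated genes to Vha68-2 and 1 to Vha68-1, and read between 0.803 and 18.3. Of the other mixed pairs the restricted member read near or below the array medians, Vha100-4 between 13.7 and 41.3 and VhaPPA1-2 between 2.88 and 14.2.

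Genes that act with the pump were followed from lists drawn up for it. List counts of the organ comparison stand against 24.7% of all tested probe sets called higher and 21.5% lower in mutant spermathecae, and 22.2% higher and 21.5% lower in wild-type spermathecae. For its assembly and regulation, 5 of 7 listed genes had probe sets, 7 in all, and Mitf, a transcription factor of lysosomal and pump genes, was called higher in spermathecae, at 0.92 (SE 0.315, adjusted p = 0.0371) in the mutant and 1.86 (SE 0.315, adjusted p = 0.000991) in wild type. In the mutant 3 of the 7 were called higher and 1 lower, and in wild type 1 each. Both called probe sets of mtd, of a gene family that regulates pump assembly, disagreed in the mutant, at 1.10 (SE 0.317, adjusted p = 0.0174) for 1626842_a_at and -0.86 (SE 0.256, adjusted p = 0.0205) for 1632983_s_at. The remaining mtd probe set, 1635703_s_at, was the brightest of the gene, at 520 to 944, and was not called. No probe set of this list was called between genotypes, with 2 at an unadjusted p below 0.05 in spermathecae and 1 in the lower tract, against 21.5% and 17.4% of all tested.

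The mitochondrial ATP synthase, a rotary relative of the pump that makes ATP, had 14 kept probe sets, and its organ difference was a median of -0.76 in the mutant and -0.75 in wild type, against -1.05 and -0.43 for the ubiquitous pump subunits. Of the 14, 12 were called lower and 0 higher in mutant spermathecae, and 11 and 1 in wild type. None was called between genotypes. Of all tested probe sets, 4.04% were called higher and 3.89% lower in mutant spermathecae, and 2.47% and 3.33% in the mutant lower tract. ATPsynC, the ring subunit of the synthase, had an organ difference of -1.18 (SE 0.134, adjusted p = 6.49e-05) in the mutant and -1.53 (SE 0.134, adjusted p = 1.17e-05) in wild type. The interaction, which asks whether the organ difference differs between genotypes, had a median of -0.0014 in this list and -0.56 in the ubiquitous pump list, with 0 called in either.

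**Figure D5:**
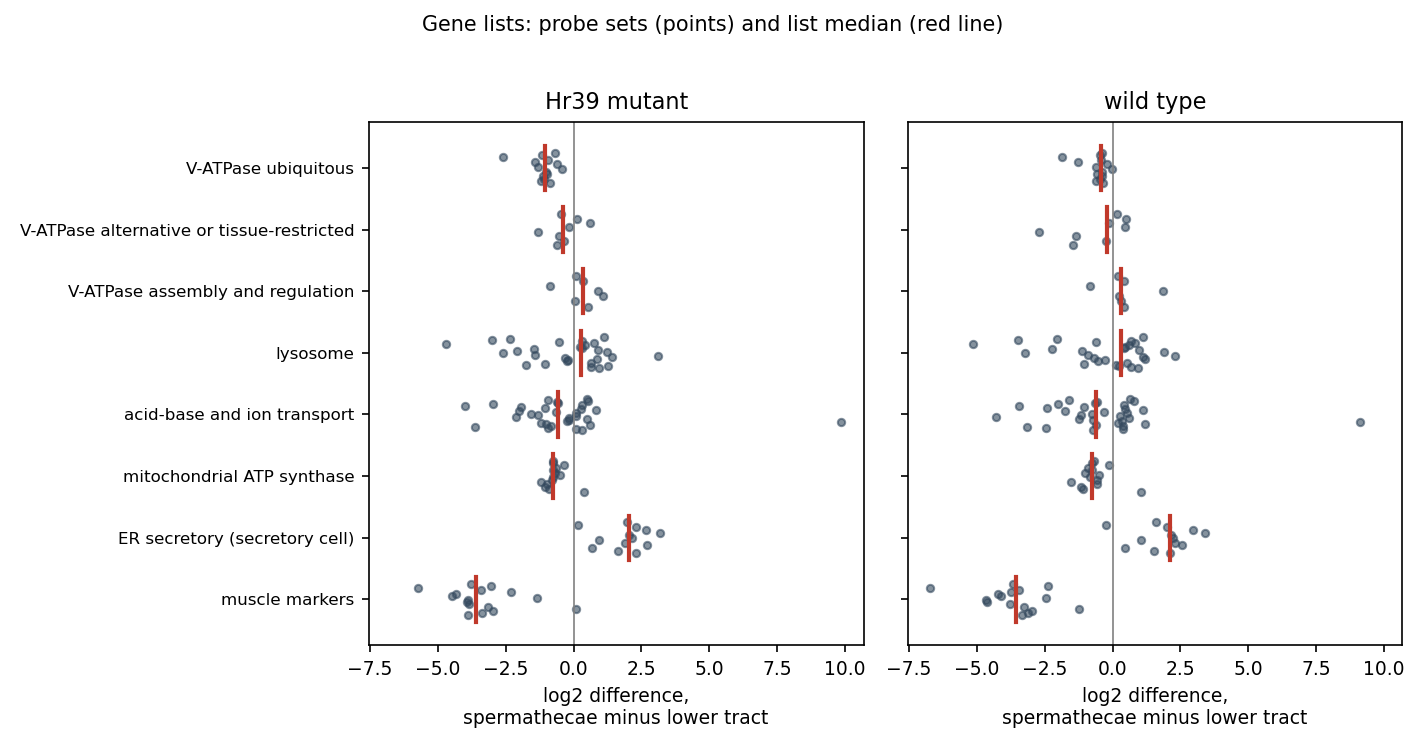
Log2 difference of spermathecae minus lower tract for the kept probe sets (points) of 8 gene lists, in the mutant on the left and in wild type on the right, with a red line at each list's median. The ubiquitous pump subunits have medians of -1.05 (mutant) and -0.43 (wild type), between the muscle markers at -3.59 and -3.54 and the endoplasmic reticulum list at 2.05 and 2.11.

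Acidic organelles and ion transport use the pump, so lysosomal genes and ion transport genes were counted too. Of 28 kept lysosomal probe sets, 11 were called higher and 10 lower in mutant spermathecae, and 12 and 10 in wild type, above the 24.7% and 21.5% of all tested in the mutant and the 22.2% and 21.5% in wild type. Lerp, a sorting receptor for lysosomal enzymes, was higher in spermathecae, at 3.11 (SE 0.167, adjusted p = 3.87e-07) in the mutant and 2.30 (SE 0.167, adjusted p = 3.09e-06) in wild type, and Cln3, a lysosomal membrane protein, lower, at -4.72 (SE 0.259, adjusted p = 4.37e-07) and -5.14 (SE 0.259, adjusted p = 2.56e-07). Between genotypes, 2 of the 28 lysosomal probe sets were called higher and 1 lower in mutant spermathecae, against 4.04% and 3.89% of all tested. In that comparison 17 of 28 estimates lay below 0 and the median was -0.04. The higher ones were Npc2a, a sterol carrier, at 1.36 (SE 0.201, adjusted p = 0.00279), and Gal, a beta-galactosidase, at 0.62 (SE 0.165, adjusted p = 0.0488). The lower one was GILT1, a thiol reductase, at -0.62 (SE 0.151, adjusted p = 0.0339). In the lower tract Lerp alone of this list was called, lower in the mutant at -1.08 (SE 0.167, adjusted p = 0.00462), where 3.33% of all tested were called lower. Of 32 kept acid-base and ion transport probe sets, 3 were called higher and 13 lower in mutant spermathecae, and 7 and 13 in wild type. The counts called lower exceed the 21.5% of all tested, the 7 called higher in wild type are near the 22.2% of all tested, and the 3 in the mutant lie below its 24.7%. Between genotypes, 3 of the 32 were called higher and 2 lower in mutant spermathecae, against 4.04% and 3.89% of all tested, with 15 estimates above and 17 below 0. The water channel gene Drip was lower in mutant than in wild-type spermathecae, at -2.01 (SE 0.189, adjusted p = 0.000169), and 1 of the probe sets of Prip, its relative, at -1.22 (SE 0.167, adjusted p = 0.00176), both on the log2 scale. The 3 called higher were CAH7, a carbonic anhydrase, at 1.31 (SE 0.223, adjusted p = 0.00611), kcc, a potassium-chloride cotransporter, at 0.71 (SE 0.173, adjusted p = 0.0348), and Nhe2, a sodium-proton exchanger, at 1.78 (SE 0.438, adjusted p = 0.0361), the last named after its value was seen.

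Markers of other cell types moved with the organ comparison. The 16 muscle probe sets summed to 7321 and 7259 in mutant spermathecae, 6222 and 6277 in wild-type spermathecae, 82199 and 69839.9 in the mutant lower tract and 66379 and 74086 in the wild-type lower tract, and their medians were -3.59 in the mutant and -3.54 in wild type. The endoplasmic reticulum genes of secretory cells ran the other way, with 12 of 13 called higher in spermathecae in both genotypes. The 16 probe sets of 13 gut and Malpighian tubule genes, 9 of them kept, summed to 1632 and 1696 in mutant spermathecae, 3162 and 4569 in wild-type spermathecae, 2817 and 2554 in the mutant lower tract and 1941 and 2226 in the wild-type lower tract. Within that list Drip read 663 and 724 in mutant spermathecae against 2291 and 3407 in wild-type spermathecae. Drip and Irk1, both also in the ion transport list, made up most of these sums in spermathecae. The brighter Irk1 probe set read 819 and 844 in mutant and 716 and 933 in wild-type spermathecae. The kept probe sets of alphaTry, betaTry, mex1, ct and tsh read between 2.29 and 27.4 on the spermathecal arrays, where array medians over all arrays were 17.7 to 22.5. Hemocyte markers, 13 probe sets with 12 kept, summed to 3068 and 2849 in mutant spermathecae, 3737 and 3530 in wild-type spermathecae, 6199 and 5657 in the mutant lower tract and 5460 and 6195 in the wild-type lower tract. Of the 12, 10 were called lower in spermathecae in the mutant and 8 in wild type, where 21.5% of all tested were. The 2 called higher in each genotype were the transcription factors srp and lz, where the other 10 estimates lay below 0. Whether their signal comes from hemocytes was not tested. The signal of srp was 1966 and 1608 in mutant spermathecae, 2332 and 2235 in wild-type spermathecae, 132 and 146 in the mutant lower tract and 127 and 160 in the wild-type lower tract. The 8 spermathecal secretory probe sets, 7 of them kept, summed to 5701 and 1099 in the mutant lower tract and 2049 and 277 in the wild-type lower tract, with replicate 1 the higher in both. Fat body markers, 10 probe sets with 8 kept, summed to 36822 and 37133 in mutant spermathecae against 50788 and 28128 in wild-type spermathecae. Germline markers, 14 probe sets with 6 kept, summed to 1657 and 1639 in the mutant lower tract against 4420.2 and 1596 in the wild-type lower tract. Of the neuron markers 4 of 14 probe sets were kept, and of the testis and sperm markers 1 of 9. The part of these cell types in the pump differences was not tested.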

How the data were processed

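Total RNA was measured on 8 arrays of 2 genotypes and 2 organs. The deposited values are array intensity (signal) on a linear scale, which the authors made with MAS5 (version not given) per the submitters' processing notes; laboratory protocols are not given in the sources used here. The mean of an array, trimmed by 2% at each end, was 149.854 to 149.869, so arrays were used without further scaling. Of 18952 probe sets, 183 controls were left out, and 10113 were kept. No per-sample column was left unused. Genes come from the platform's annotation, in which 402 probe sets had several symbols and 4720 none, and all 32 Vha symbols matched RefSeq.

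Values were taken to log2 after adding 4, the 20th percentile, and a model with 1 coefficient for each group was fitted to them in R 4.3.3 by lmFit and eBayes of limma 3.58.1, with the prior variance trended on mean signal, 4 residual and 5.75 prior degrees of freedom. Each of 5 comparisons had its two-sided p-values corrected (Benjamini-Hochberg) across all 10113 probe sets. The script was tested on simulated data. Arrays give no read depth, and their number limits the precision. The rule gave the value on every array for all ubiquitous and all kept restricted probe sets, and at most 4 called members per comparison from other lists. Members and lists were chosen with earlier results of these data known. Deviations of same-numbered arrays correlated at -0.032 to 0.026 over all kept probe sets, and the main fit did not pair them. A correlation over all kept probe sets cannot show whether same-numbered arrays share a batch at some genes. Alternatives were 2 normalizations, 2 pseudocounts, 2 filters, 2 variance settings, only the 4 arrays compared, a replicate block, leaving arrays out, and only plain probe sets.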

Additional observations from a re-analysis of the deposited data

How the results depend on the processing

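Of 2108 values of single members under the alternatives, 2000 kept their side of the threshold, 75 lost their call and 33 gained one. Among the 2000 are 55 values that changed sign and were called in neither fit. Of the called values 0 changed sign. Counts below are of all 22 kept Vha probe sets. In mutant against wild-type spermathecae, 0 were called lower with the settings of the report and 3 with quantile normalization, with a stricter filter and with a robust variance, and the 1 called higher became 0 with the stricter filter, which leaves Vha36-3 untested. In the lower tract, the 1 called higher became 2 with quantile normalization and 0 with median centring, no pseudocount, no filter, no variance trend, only the 4 arrays compared, only plain probe sets, or both wild-type replicates 1 left out. Spermathecae against lower tract in wild type gave 10 called lower, but 5 with median centring, 6 with no filter, 4 with only the 4 arrays compared and 5 with only plain probe sets. The 1 called higher became 0 with only the 4 arrays compared and with both wild-type replicates 1 left out. With only plain probe sets, Vha44, Vha55, VhaSFD and Vha100-2 were not tested. That setting therefore lacks the lower tract call of Vha44 and the wild-type organ calls of these genes. VhaPPA1-1 was tested there and lost its wild-type organ call. In the mutant, 14 called lower became 7 with only plain probe sets, where fewer were tested. The interaction went to 1 called lower with quantile normalization, against 0. The cause of the other moves was not tested.

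Leaving out 1 array at a time gave, for spermathecae between genotypes, 0 to 1 called higher and 0 to 2 lower, and for the lower tract 0 to 1 higher and 0 lower. It gave 0 to 1 higher and 4 to 9 lower for the organs in wild type, 0 higher and 11 to 15 lower for the organs in the mutant, and 0 to 1 lower for the interaction. Over all probe sets, calls between genotypes ranged from 313 to 1132 in spermathecae (802 with all arrays), from 178 to 713 in the lower tract (587) and from 116 to 440 for the interaction (308). Median centring moved the median of all probe sets in the wild-type organ comparison to 0.24, against 0.07, and left 3 of the 14 ubiquitous probe sets called lower, against 13 with quantile normalization. With a replicate block the ubiquitous counts were unchanged, at 13 lower in the mutant and 8 in wild type.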
